A study of Mus musculus with 8 samples.

Results

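Imprinted genes are expressed from only 1 of the 2 parental alleles, and 10 of the best known mouse ones were followed here through sperm and epididymis RNA. The genes were chosen by name (H19, Igf2, Igf2r, Peg3, Mest, Cdkn1c, Dlk1, Grb10, Plagl1 and Peg10) and not by their signal. Earlier results of these data were known at the time. Of these, 9 had a probe set of their own, a set of short DNA probes read out as 1 value, among 19411 genes in all. Each of the 9 had exactly 1 such probe set. H19 was not analysed here, since no row could be named for it by symbol, gene identifier or RefSeq accession. The letters H19 are also an old synonym of Nckap1, an actin regulator and a different gene, so that match was refused. The probe set of Mir675, the microRNA made from H19, was annotated to Supt6 as well and was therefore not used.

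The series compared RNA from C57/Bl6 mice on Affymetrix arrays, 1 array per sample, and asked how a father's diet relates to the RNA his sperm carry. Sperm from the caudal epididymis came from males on a control diet (3 arrays), a low protein diet (2 arrays) or caloric restriction (1 array). Epididymis came from males on control (1 array) or low protein diet (1 array). Control and low protein males were on their diet until 9 to 12 weeks of age and were then housed briefly with control-fed females, per the labels; no age is stated for caloric restriction. No genetic alteration is given for any group, and the labels do not say whether an array stands for 1 animal or a pool. Sperm preparations were over 99.5% pure by microscopy and had been screened by PCR against the somatic transcripts Actb and Myh11.

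Imprinting is set in the germ line. Methyl groups are laid on control regions in a sex-specific way during egg or sperm development, and in the offspring they silence or allow expression of the marked parental copy. Igf2, Peg3, Mest, Dlk1, Plagl1 and Peg10 are expressed from the paternal copy, and H19, Igf2r and Cdkn1c from the maternal copy. Grb10 is maternal in most tissues and paternal in neurons. The paternal genes mostly promote growth before birth and the maternal ones mostly restrain it. Most of these genes are strongly expressed in the embryo and placenta and are turned down after birth. The arrays measured total RNA per gene and did not separate the parental alleles, so they do not bear on imprinting status itself.

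The labels were checked against markers. All 15 spermatid and sperm genes (such as Prm1 and Tnp2) were higher in sperm, and all 12 smooth muscle genes and 10 of 12 epididymal epithelium genes were lower, with 1 higher. Only 12 of the 19 epithelium markers listed were among the genes tested, as were 9 of 10 fibroblast and matrix and 5 of 8 endothelium markers. In control sperm the median epithelium marker stood at 43.8% ± 2.02 (SD, n = 3) of its epididymis signal, the median smooth muscle marker at 15.0% ± 1.55, the median leukocyte marker at 92.6% ± 13.6 and the median Leydig and Sertoli marker at 121% ± 8.87. The part of probe background in these shares was not measured. The median spermatid and sperm marker stood at 845%, 757% and 730.4% of its epididymis signal on the control sperm arrays, 1285% and 1907% on the low protein arrays and 1779% on the caloric restriction array. In these bulk samples, fewer cells of a type and less RNA per cell cannot be told apart. Low protein sperm replicate 2 stood apart from the rest: its correlation with the other sperm arrays was 0.71 to 0.86 over the genes tested, against at least 0.85 among the other 5. Array medians were 6.08 to 6.17 (log2). The number of arrays limits the precision.

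Between sperm and epididymis, Igf2r and Plagl1 were lower in sperm and Dlk1 was higher. Igf2r, which binds Igf2 and carries it to the lysosome for breakdown, fell by 1.30 ± 0.18 on the log2 scale (SE; 5 sperm and 2 epididymis arrays set this difference, since the diet term takes up the caloric restriction array). Plagl1, a zinc finger transcription factor that holds back cell growth, fell by 0.79 ± 0.27. Dlk1, a membrane protein related to Notch ligands that keeps precursor cells undifferentiated, rose by 0.42 ± 0.14. Igf2, Grb10, Cdkn1c and Peg3 did not pass the test. Mest and Peg10 lay below the filter, which left out the 30% of genes with the lowest mean (log2 5.69 and below).

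By limma, 1 of the 7 imprinted genes tested was called higher and 2 lower at an adjusted p below 0.05. Among all 13587 genes tested, 48.5% were called (6594), 18.4% higher and 30.1% lower. Without the low protein epididymis array 2748 were. A share of 3 in 7 is near that background and says nothing particular about imprinted genes. The median difference of the 7 was -0.29, against -0.08 over all genes tested. Cyclic loess scaling moved the latter to 0.05 and the share of calls that were higher from 37.9% to 50.8%.

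The promoters of Igf2r and Plagl1 are shown because these were the imprinted genes that fell in sperm. Each stretch is the 250 bases before a RefSeq start site (GRCm38.p6), 5′ to 3′ on the gene's strand, with every CG dinucleotide, the site of DNA methylation, in capitals. The Igf2r stretch lies at chr17:12769707-12769956 on the minus strand and the Plagl1 stretch at chr10:13090582-13090831 on the plus strand.
Igf2r: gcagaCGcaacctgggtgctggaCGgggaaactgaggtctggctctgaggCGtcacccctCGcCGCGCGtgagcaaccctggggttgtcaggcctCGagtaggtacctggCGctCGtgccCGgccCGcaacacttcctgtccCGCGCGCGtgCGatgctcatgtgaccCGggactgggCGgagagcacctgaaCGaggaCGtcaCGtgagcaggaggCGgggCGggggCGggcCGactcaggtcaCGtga
Plagl1: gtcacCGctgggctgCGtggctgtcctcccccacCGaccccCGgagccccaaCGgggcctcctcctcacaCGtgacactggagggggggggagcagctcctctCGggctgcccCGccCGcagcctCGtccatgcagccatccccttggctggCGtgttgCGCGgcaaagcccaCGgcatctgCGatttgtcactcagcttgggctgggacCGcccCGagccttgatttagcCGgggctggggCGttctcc
Igf2r held 27 CG and Plagl1 19. The motif CG reads the same on both strands and cannot overlap itself. As many CG as in Igf2r were found in 8.56% of the same 250-base stretches of the 32851 promoter windows in the table, and as many as in Plagl1 in 19.7%. The median stretch held 6, and 92.1% held at least 1. The table had windows for 7 of the 10 genes, 13 in all, and 11 of these held more CG than that median. The single Dlk1 stretch held 8, as did that of Peg3. Those of Grb10 held 8 and 40, those of Igf2 6, 22, 10 and 1, and those of Mest 7, 14 and 14. The Mest stretches with 14 overlap each other. Igf2, Grb10 and Peg3 did not pass the test between tissues, and Mest lay below the filter. These counts describe the sequence, and methylation was not measured here.

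Among the members that bind or transmit insulin-like growth factor, Igf2r differed most between the tissues. Its log2 signal was 7.98 in control and 7.96 in low protein epididymis. In control sperm it was 6.65, 6.78 and 7.18. Sperm read 6.40 and 6.46 under low protein and 6.43 under caloric restriction. Every sperm array lay below both epididymis arrays, and all 3 control sperm arrays lay above all 3 arrays of the restricted diets. The fall in sperm was 2.46-fold (95% interval -1.72 to -0.88 on the log2 scale, adjusted p by limma 0.000729). It stayed past the threshold in each of the 16 alternatives run, with differences from -1.52 to -1.08.

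The Igf2r signal of sperm was 40.2%, 44.1% and 58.1% of the epididymis mean on the control arrays, 33.8% and 35.3% on the low protein arrays and 34.5% on the caloric restriction array. The median epithelium marker on the same arrays stood at 42.0%, 46.0% and 43.3% (control), 35.4% and 26.1% (low protein) and 29.9% (caloric restriction). The Igf2r share and the epithelium share were both lower on each restricted diet array than on any control array. The smooth muscle share was too, but the fibroblast, endothelium and leukocyte shares were not. On the caloric restriction array the fibroblast share was 69.2%, against 48.6%, 55.0% and 73.8% (control). The endothelium share was 78.3% on low protein replicate 2, against 72.2%, 66.7% and 66.3% (control). Among control arrays Igf2r stood highest on replicate 3 and the epithelium markers on replicate 2. The mean log2 level of the 12 epithelium markers was 7.03 to 7.63 on the sperm arrays and 8.49 and 8.66 in epididymis. The part of the epithelium signal in the Igf2r values was not tested.

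**Figure D1:**
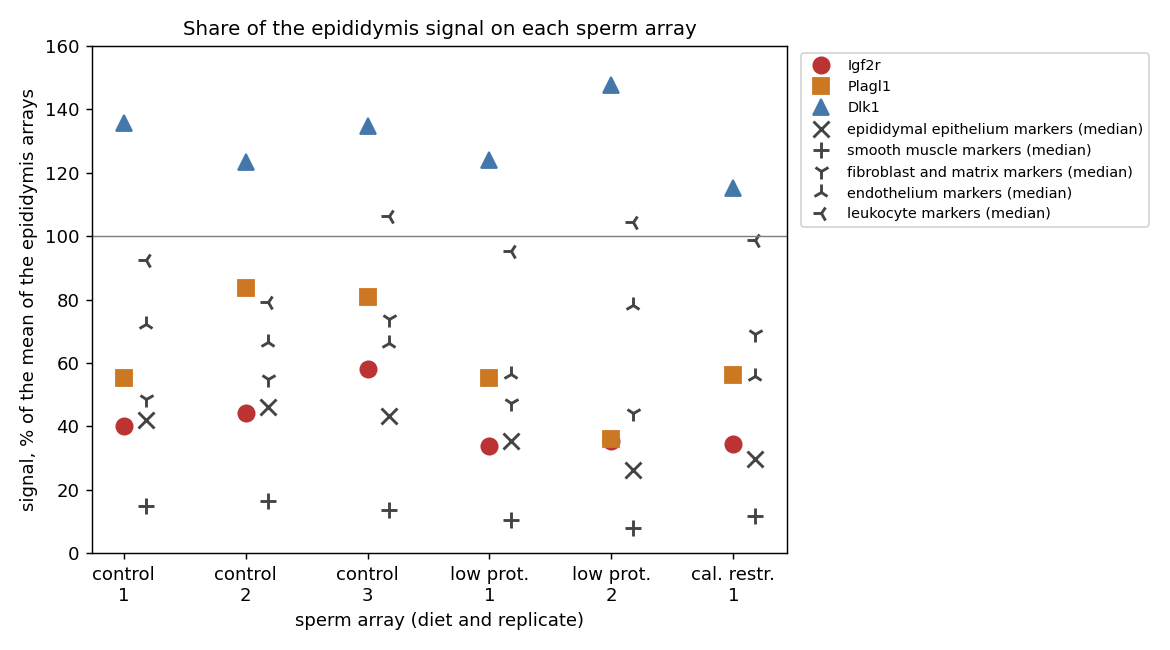
Signal of Igf2r, Plagl1 and Dlk1 on each of the 6 sperm arrays as a percentage of the mean of both epididymis arrays (coloured symbols), beside the median of the markers of 5 somatic cell types (grey symbols, shifted right); the line marks 100%. Igf2r lies between 33.8% and 58.1% and Dlk1 between 115% and 148% on all 6 arrays. The Leydig and Sertoli markers, with medians of 109% to 157% on these arrays, are not shown.

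Igf2, the fetal growth factor that Igf2r clears, did not pass the test between the tissues. Its log2 signal was 6.44, 5.95 and 6.17 in control sperm, 5.84 and 6.50 under low protein and 6.12 under caloric restriction, against 6.48 and 6.46 in control and low protein epididymis. The low protein sperm arrays held both the lowest and the highest value of the 8, so sperm and epididymis overlapped. The difference was -0.29 ± 0.21 (SE; 95% interval -0.77 to 0.18, adjusted p by limma 0.268). Without low protein sperm replicate 2 it was -0.42 and past the threshold (adjusted p by limma 0.0411), and without low protein sperm replicate 1 it was -0.16 (adjusted p by limma 0.499).

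Grb10, an adaptor that dampens insulin and insulin-like growth factor receptor signalling, read 5.89, 5.82 and 5.70 in control sperm, 5.77 and 6.10 under low protein and 5.44 under caloric restriction. Epididymis read 6.08 on control and 6.32 on low protein diet. Low protein sperm replicate 2 was the only sperm array to reach the epididymis values. The difference was -0.33 ± 0.15 (SE; 95% interval -0.67 to 0.01, adjusted p by limma 0.101). Without low protein sperm replicate 2 it was -0.38 and past the threshold (adjusted p by limma 0.0366), as it was after cyclic loess (-0.38, adjusted p by limma 0.0316).

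Cdkn1c, an inhibitor of cyclin-dependent kinases that stops the cell cycle, read 6.74, 6.46 and 6.61 in control sperm, 6.48 and 7.10 under low protein and 6.40 under caloric restriction. The epididymis values of 6.68 and 6.59 lay within that range. The difference between tissues was 0.06 ± 0.19 (SE; 95% interval -0.38 to 0.50, adjusted p by limma 0.823). Its sign turned after median centring and without low protein sperm replicate 2, so no direction is given.

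**Figure D2:**
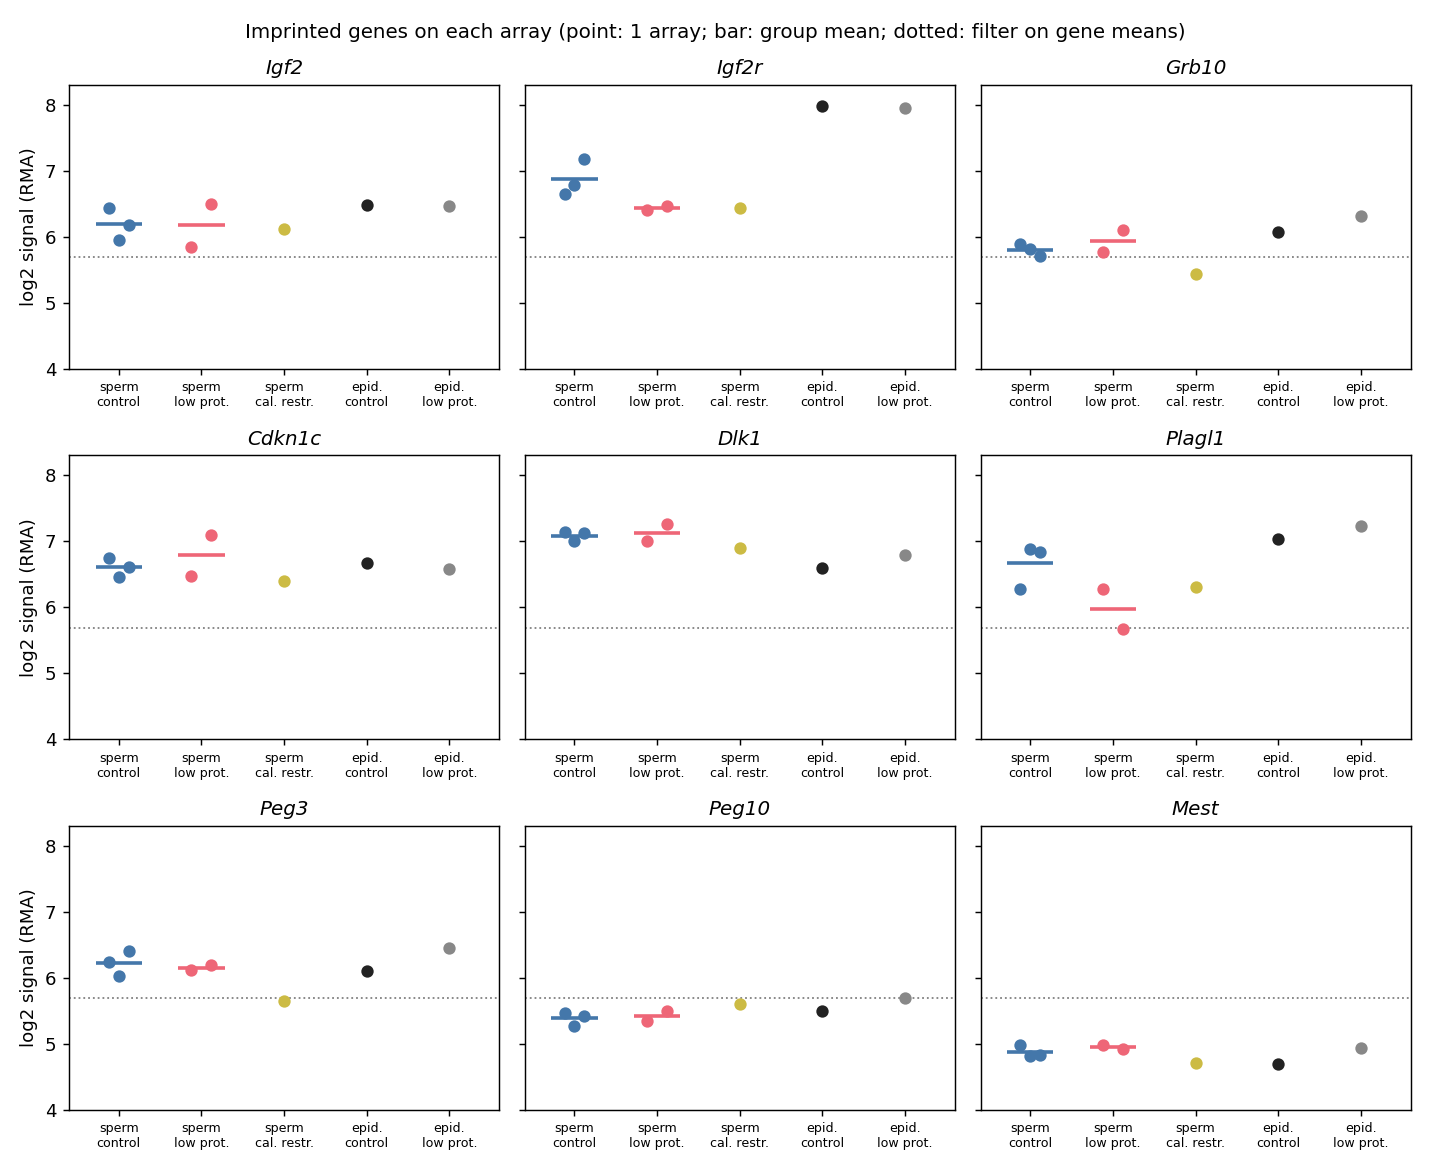
Log2 signal of the 9 imprinted genes with a probe set, 1 panel per gene; each point is an array, bars are group means where a group has over 1 array, and the dotted line is the filter at log2 5.69. Both epididymis points lie above all 6 sperm points for Igf2r and Plagl1 and below them for Dlk1.

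Of the imprinted transcription regulators, Plagl1 varied most. It read 7.04 and 7.24 in control and low protein epididymis. Control sperm read 6.28, 6.88 and 6.83, low protein sperm 6.28 and 5.67, and caloric restriction sperm 6.30. Both epididymis arrays lay above all sperm arrays. The fall in sperm was 1.73-fold (95% interval -1.40 to -0.18 on the log2 scale, adjusted p by limma 0.0381). It was -0.37 and not past the threshold without the low protein epididymis array (adjusted p by limma 0.433), and without control sperm replicate 1 it was -0.72 (adjusted p by limma 0.0848). The call was also lost after quantile normalization (-0.72, adjusted p by limma 0.0832), after cyclic loess (-0.73, adjusted p by limma 0.0536) and without the diet term (-0.76, adjusted p by limma 0.0544).

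Peg3, a large zinc finger protein linked to maternal behaviour and growth, read 6.24, 6.03 and 6.40 in control sperm and 6.12 and 6.19 in low protein sperm. Caloric restriction sperm stood lowest at 5.65, and epididymis read 6.10 on control and 6.45 on low protein diet. The tissues overlapped, with a difference of -0.08 ± 0.17 (SE; 95% interval -0.45 to 0.30, adjusted p by limma 0.725). The sign turned without the low protein epididymis array (0.12).

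Dlk1 was the member that rose in sperm. It read 7.13, 6.997 and 7.12 in control sperm, 7.01 and 7.26 under low protein and 6.90 under caloric restriction, against 6.59 and 6.80 in control and low protein epididymis. All 6 sperm arrays lay above both epididymis arrays, by 0.10 at the nearest pair (6.90 against 6.80). The Dlk1 share of the epididymis mean was 136%, 123% and 135% (control), 124% and 148% (low protein) and 115% (caloric restriction). The median Leydig and Sertoli marker stood at 131%, 115% and 116% (control), 109% and 157% (low protein) and 116% (caloric restriction). What the 2 have in common was not tested. The Dlk1 rise was 1.34-fold (95% interval 0.09 to 0.75 on the log2 scale, adjusted p by limma 0.0394). It was not past the threshold in 8 of the 16 alternatives, all positive: among them median centring (0.36, adjusted p by limma 0.0553), no filter (adjusted p by limma 0.0544) and the fit without the diet term (0.37, adjusted p by limma 0.0620). Leaving out any 1 control sperm array gave adjusted p by limma of 0.0714 to 0.0842, and leaving out the control or low protein epididymis array gave 0.269 and 0.133.

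Groups that did not overlap are common in these data: 60.4% of all genes tested had no overlap between the 6 sperm and the 2 epididymis arrays, 24.8% higher and 35.6% lower in sperm. Of the 9 imprinted genes, 3 did not overlap, the same 3 that were called. The range over the 8 arrays was 1.58 for Igf2r and 1.57 for Plagl1, larger than that of 74.9% and 74.6% of the genes tested. It was between 0.65 and 0.88 for Igf2, Peg3, Cdkn1c, Dlk1 and Grb10, all below the median range of 0.97.

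Mest and Peg10 were low and flat. Mest, a membrane enzyme of the hydrolase fold, read 4.71 to 4.99 over the 6 sperm arrays (median 4.87) and 4.70 and 4.94 in epididymis. Peg10, a protein derived from a retrotransposon and needed in the placenta, read 5.27 to 5.61 over the 6 sperm arrays (median 5.45) and 5.49 and 5.70 in epididymis. The tissues overlapped for both genes. In a fit without the filter the differences were 0.10 ± 0.15 for Mest and -0.19 ± 0.15 for Peg10 (SE; adjusted p by limma 0.618 and 0.346). Their ranges over 8 arrays, 0.29 and 0.43, were larger than those of 1.32% and 6.94% of the genes tested. That set leaves out Mest, Peg10 and other genes as low, and no comparison with genes of like level was made. Whether these signals lie above the background of their probes was not measured, and the same holds for the other members. Igf2, Peg3 and Grb10 had means of 6.25, 6.15 and 5.89 over the 8 arrays, beside array medians of 6.08 to 6.17.

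**Figure D3:**
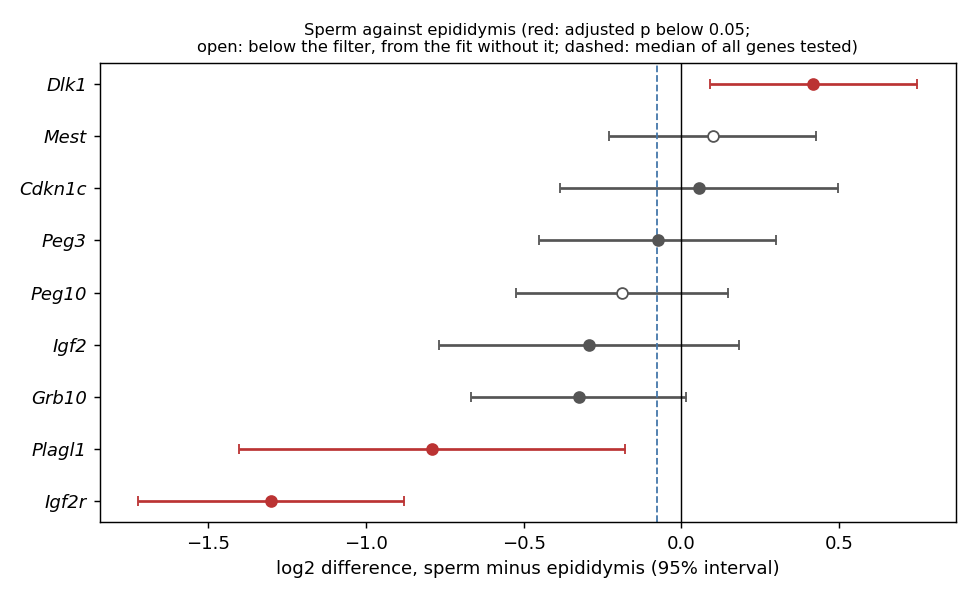
Log2 difference between sperm and epididymis for 9 imprinted genes with 95% intervals; red genes passed the test, open circles are the genes below the filter (from the fit without it) and the dashed line is the median of all genes tested (-0.08). The intervals of Igf2r, Plagl1 and Dlk1 do not reach 0, and the other 6 do.

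In low protein sperm, none of the imprinted genes passed the test against control. Plagl1 had the largest difference, -0.69 ± 0.26 (SE; 2 low protein and 3 control arrays; adjusted p by limma 0.167). Low protein replicate 1 (6.28) was level with control replicate 1 (6.28), so the groups met. The lower mean rests mostly on replicate 2 (5.67): without it the difference was -0.38, and without replicate 1 it was -0.997 and past the threshold (adjusted p by limma 0.00486). Igf2r differed by -0.44 ± 0.20 (SE; adjusted p by limma 0.210), with both low protein arrays below all 3 controls, as 22.4% of all genes tested also were. Of the 9 it was the only one without overlap here, a pattern that 41.1% of all genes showed in either direction. Cdkn1c, Grb10, Dlk1, Igf2 and Peg3 differed by 0.18, 0.13, 0.05, -0.02 and -0.07, each less than its standard error. The signs for Cdkn1c, Grb10 and Dlk1 turned without low protein replicate 2.

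Limma called 0 of the 7 imprinted genes, 1 of them (Plagl1) with an unadjusted p below 0.05. It also called 0% of the 13587 genes tested, of which 3406 had an unadjusted p below 0.05. Without low protein replicate 1 it called 5155. The median difference of the 7 was -0.02, against -0.06 over all genes. Among the 6 sperm arrays, low protein replicate 2 held the highest value for 4 of the 9 imprinted genes (Igf2, Cdkn1c, Dlk1 and Grb10) and the lowest for Plagl1. It held the highest value for 37.2% and the lowest for 25.3% of all genes, so the array was extreme well beyond this set.

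On the caloric restriction array no imprinted gene passed the test. Of the 7 tested, 1 (Peg3) had an unadjusted p below 0.05 by limma, as did 16.6% of all genes. Peg3 differed from control by -0.57 ± 0.22 (SE; 1 caloric restriction and 3 control arrays; adjusted p by limma 0.236) and lay below all other arrays, epididymis included. Grb10 differed by -0.36 ± 0.22, Plagl1 by -0.36 ± 0.32 and Igf2r by -0.44 ± 0.25. Cdkn1c (-0.21), Dlk1 (-0.19) and Igf2 (-0.06) differed by less than their standard errors. All 7 differences were below 0, as were 62.3% over all genes tested, and their median was -0.36, against -0.11. That array held the lowest sperm value for 5 of the 9 (Peg3, Mest, Cdkn1c, Dlk1 and Grb10) and for 22.4% of all genes. It held the highest for 1 of the 9, Peg10 (5.61), and for 15.4% of all genes. In the fit without the filter, Peg10 differed from control by 0.22 and Mest by -0.16. Plagl1 (6.30) lay above control replicate 1 (6.28) and both low protein arrays (6.28 and 5.67). Limma called 5.56% of all genes, nearly all higher (5.53%), and lower calls made up 0.0368%. The count of 756 genes became 2021 without either low protein array and 298 to 487 without a control array. For the single array the spread of the other sperm arrays was taken.

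With both restricted diets set against control, Igf2r differed by -0.44 ± 0.17 and Plagl1 by -0.58 ± 0.23 (SE; 3 restricted and 3 control arrays; adjusted p by limma 0.155 and 0.158). Igf2r was the only one of the 9 whose groups did not overlap, as was so for 18.1% of all genes in that direction and 33.1% in either. Peg3 differed by -0.24 ± 0.19, and Igf2, Dlk1, Grb10 and Cdkn1c by between -0.03 and 0.05. Limma called none of the 7, against 2.75% of all genes (2.72% higher and 0.0294% lower). Of the 7, 2 (Igf2r and Plagl1) had an unadjusted p below 0.05 by limma, as did 26.4% of all genes. Without any 1 control array or the caloric restriction array 0 genes were called, and without low protein replicate 1 or 2 the count was 1428 or 654 (373 with all arrays). These comparisons share their control arrays with the ones above.

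No imprinted gene passed the test between low protein and caloric restriction sperm, and 0 of the 7 had an unadjusted p below 0.05 by limma. The largest differences were 0.50 ± 0.23 for Peg3 and 0.50 ± 0.23 for Grb10 (SE; 2 low protein and 1 caloric restriction arrays; adjusted p by limma 0.548 and 0.555), both with the caloric restriction array lower. Igf2r differed by 0.00 (95% interval -0.61 to 0.62). Limma called 0% of all genes here, with 1316 at an unadjusted p below 0.05. It called 1956 without low protein replicate 1 and 317 without low protein replicate 2.

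In epididymis, with 1 array per diet and no test, 6 of the 9 imprinted genes were higher under low protein and 3 lower. Mest and Peg10 are among the 6 and lie below the filter, while the SD and shares given next cover the genes tested. Peg3 was 0.35 higher under low protein, Mest 0.24, Grb10 0.24, Dlk1 0.21, Peg10 0.20 and Plagl1 0.20 higher. Igf2r differed by -0.02, Igf2 by -0.02 and Cdkn1c by -0.09. The SD of this difference over all genes tested was 0.19. The 6 higher genes differed by more than 74.3% (Plagl1) to 93.2% (Peg3) of all genes did, and the other 3 by more than 10.7% (Igf2r) to 41% (Cdkn1c). Of all genes, 46.7% were higher under low protein. The test of the low protein effect between tissues took its spread from the replicated sperm groups only, since each epididymis group held 1 array. Limma called no difference between the tissues in the low protein effect for the 7, and 0 of them had an unadjusted p below 0.05. The largest was Plagl1, at -0.88 ± 0.47 in sperm minus epididymis (SE; adjusted p by limma 0.875), and 0% of all genes were called (610 at an unadjusted p below 0.05). Without low protein sperm replicate 1, 1639 genes were called.

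The genes most like each member over the 8 arrays were found by Pearson correlation among the genes tested, as a description. The 8 arrays share their scaling and fall into 2 tissues. Igf2r was most like Pcdh7 and Efnb2 (r = 0.996 and 0.995) and Plagl1 most like Med24 and Foxred1 (0.99 for both), but 14.5% and 13.6% of all genes had an r above 0.9 with them. Dlk1 was most like Hmx1 and Ppp1r1b (0.98 for both), with 2.52% of genes above 0.9. Igf2 was most like Cep78 (0.98) and Fstl3 (0.97), Cdkn1c like Alkbh4 (0.97) and Ifnlr1 (0.96), Grb10 like Slc38a5 (0.99) and Snord49a (0.97), and Peg3 like Hoxb9 (0.97) and Zdhhc7 (0.96). For Mest they were Lcor (0.92) and Teddm1b (0.91), and for Peg10 2810006K23Rik (0.96) and Slc6a20a (0.94). At most 0.449% of genes (for Grb10) had an r above 0.9 with any of the last 6. None of the like genes was itself an imprinted gene of the set.

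Other imprinted genes, listed from textbook knowledge, moved in both directions between the tissues. Of 49 listed, 27 were tested: 3 rose in sperm, 6 fell and 18 did not pass, with a median of 0.04. The background of calls is the same 48.5%. Among the paternally expressed ones, 2 of 12 rose and 4 fell. Sfmbt2, a Polycomb-related protein imprinted in the placenta, rose by 2.28 ± 0.23 and read 7.84 to 9.22 over 6 sperm arrays, against 6.16 and 6.24 in epididymis. Zdbf2, a zinc finger gene that influences growth and feeding, rose by 1.83 ± 0.28. The amino acid transporter Slc38a4 fell by 2.03 ± 0.39, the sarcoglycan Sgce fell by 1.38 ± 0.22, Ndn, a growth suppressor of neurons, fell by 1.19 ± 0.20 and Mcts2 fell by 0.64 ± 0.14. The Slc38a4 call was lost without the low protein epididymis array (adjusted p by limma 0.0675), and the Mcts2 call without the control one (adjusted p by limma 0.0671).

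Among the maternally expressed ones, 1 of 15 rose and 2 fell. The tetraspanin Cd81 fell by 2.49 ± 0.15 and the matrix proteoglycan Dcn, also on the fibroblast marker list, fell by 2.06 ± 0.15. Klf14, a transcription factor, rose by 0.63 ± 0.18, a call lost without the low protein epididymis array (adjusted p by limma 0.189). Of 9 fibroblast and matrix markers 7 fell too, and their median in control sperm was 59.1% ± 13.1 (SD, n = 3) of the epididymis signal. Their part in the Dcn and Cd81 values was not tested. The count of other imprinted genes that rose was 5 after quantile normalization, 6 after cyclic loess and 5 without low protein sperm replicate 1.

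**Figure D4:**
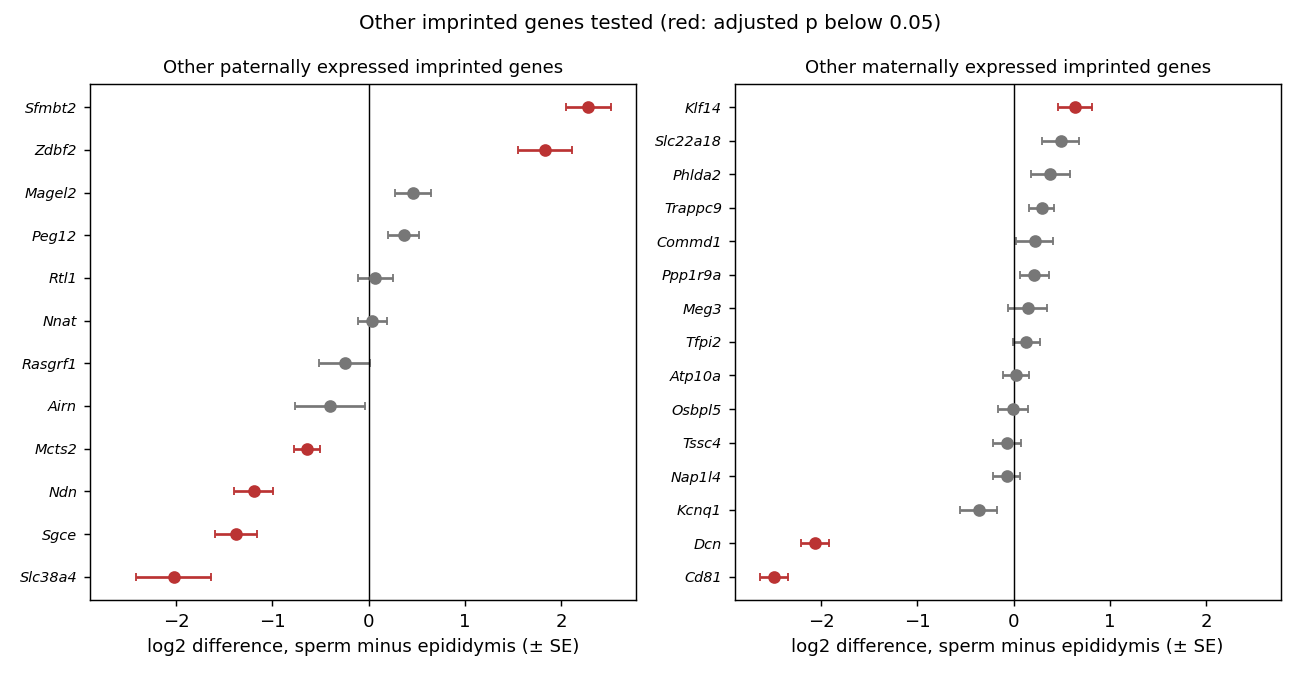
Log2 difference between sperm and epididymis (± SE) for the 12 paternally and 15 maternally expressed imprinted genes outside the main set that were tested; red genes passed the test. Sfmbt2 and Zdbf2 lie highest and Cd81, Dcn and Slc38a4 lowest.

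On the caloric restriction array 2 of these 27 genes rose. Zdbf2 read 8.92 there, against 7.05, 6.55 and 6.25 in control and 7.46 and 7.83 in low protein sperm, a rise of 2.30 ± 0.32 (SE; adjusted p by limma 0.00585). Atp10a, a phospholipid-flipping ATPase, read 8.50, against 7.03 to 7.24 over the other 5 sperm arrays and 7.09 and 7.12 in epididymis, a rise of 1.41 ± 0.20 (SE; adjusted p by limma 0.00585). Both calls held in each of the 13 alternatives run for that comparison. The spermatid and sperm markers, given above, also stood higher on the caloric restriction array than on the control arrays, and their part in these rises was not tested. Over all genes tested 5.53% were called higher on that array. None of the 27 passed in low protein sperm or with both restricted diets together, where 5 each had an unadjusted p below 0.05 by limma, against 25.1% and 26.4% of all genes. Without low protein replicate 1, 2 were called higher and 4 lower in low protein sperm, while 5155 of all 13587 genes were called.

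Of 17 insulin-like growth factor pathway genes tested, 7 fell in sperm, 1 rose and 9 did not pass, with a median of -0.42 against -0.08 over all genes. That is near the background, in which 48.5% of all genes were called and 30.1% were lower. The binding protein Igfbp2 fell by 1.99 ± 0.14, the insulin receptor Insr fell by 1.83 ± 0.34, Igfbp5 fell by 1.71 ± 0.15 and the adaptor Shc1 fell by 1.05 ± 0.33. The RNA-binding protein Igf2bp3, which binds Igf2 mRNA, rose by 1.66 ± 0.23. When the low protein epididymis array was left out, 3 fell, and the calls of Insr and Shc1 were lost (adjusted p by limma 0.0510 and 0.283). The Shc1 call was also lost without control sperm replicate 1 or 3 and after quantile normalization.

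Of 11 genes of mannose 6-phosphate sorting and the lysosome, the route Igf2r serves, 8 fell and 0 rose, with a median of -1.29 (9 had an unadjusted p below 0.05 by limma). Over all genes tested 30.1% fell, 56.3% had an unadjusted p below 0.05 by limma, and the median was -0.08. The membrane protein Lamp2 fell by 2.38 ± 0.23 and the protease Ctsl fell by 2.23 ± 0.23. Ctsb, another protease, fell by 1.82 ± 0.20. Sort1, another sorting receptor, fell by 1.74 ± 0.34. The phosphotransferase subunit Gnptab, which makes the tag, differed by -0.39 (adjusted p by limma 0.0862). When the low protein epididymis array was left out, 5 fell, and the Sort1 call was lost (adjusted p by limma 0.0732). The epithelium markers, given above, were lower on the same arrays, and their part in these values was not tested.

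Of 11 factors that set or keep imprints, 3 fell in sperm and 0 rose, with a median of -0.28 (4 had an unadjusted p below 0.05 by limma). The count of 3 is near the 30.1% of all genes that fell. An unadjusted p below 0.05 by limma was found for 56.3% of all genes. Zfp445, a zinc finger protein that protects imprints, fell by 0.78 ± 0.17, its co-repressor Trim28 fell by 0.65 ± 0.23 and the insulator protein Ctcf, which binds the H19 and Igf2 control region, fell by 0.56 ± 0.16. The Trim28 call was lost in 8 of the 16 alternatives, with differences from -0.91 to -0.17; these included eBayes with a trend, the fit without the diet term, and leaving out control sperm replicate 2. After quantile normalization 0 of the 3 passed and after cyclic loess 1 did. Without the low protein epididymis array 0 passed, and without the control one or without control sperm replicate 1, 1 did. Zfp57, which binds methylated imprint control regions, rose by 0.96 ± 0.20 on the caloric restriction array (6.84, against 5.81 to 6.03 over the other 5 sperm arrays; adjusted p by limma 0.0279), and that call was lost without any 1 of the 3 control arrays. In the fit of both restricted diets Igf2bp3 rose by 0.91 ± 0.18 (adjusted p by limma 0.0411), and the call was lost without any 1 control array or the caloric restriction array. The part of the spermatid and sperm markers, higher on the restricted diet arrays, in the Zfp57 and Igf2bp3 values was not tested.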

How the data were processed

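Sperm and epididymis RNA of 8 samples was measured, 1 array each. The deposited values are log2 signals per probe set, made with RMA by the authors, per the submitters' processing notes; its version and annotation: not given in the sources used here. RMA as usually run scales arrays to one distribution, which hides changes in total RNA per cell. Of 33660 probe sets, 21222 carried 1 gene by the platform annotation, 1541 several and 10897 none here. Gene identifiers gave current symbols from RefSeq of GRCm38.p6 (21137 matched, 85 kept the platform's). The probe set of highest mean stood for each of 19411 genes, and the lowest 30% by mean were left out, which left 13587. Tests used limma 3.58.1 in R 4.3.3 (lmFit, eBayes, two-sided) with Benjamini-Hochberg adjustment over these 13587 and a threshold of 0.05, and errors are moderated standard errors. The tissues were compared over 8 arrays, diet being an additive term, diets over the 6 sperm arrays, and the diet effects of both tissues over 8 arrays with a mean per group. The code of the fits was run on simulated data with equal noise on all arrays of a gene and no outlying array. That check does not bear on how the fits behave with the unequal arrays here. The signal shares are 2 to the power of the log2 difference. Separate animals are not stated for the replicates; p-values reflect only the spread among these arrays, which may be technical; no arrays were identical. The imprinted genes and lists were chosen with earlier results of these data known. The text names all imprinted genes of the set, the 2 most like each, and up to 4 genes per list and direction with the largest change between tissues past the threshold; genes named beyond that rule (Atp10a, Zfp57, Gnptab, and Zdbf2 and Igf2bp3 under diet) were chosen after their values were seen. The 7 marker lists were those of spermatids and sperm, epididymal epithelium, smooth muscle, fibroblasts and matrix, endothelium, leukocytes, and Leydig and Sertoli cells; the 4 of 9 genes tested of the last had 1 higher and 0 lower in sperm, the 10 leukocyte genes 1 higher and 0 lower, and the 5 endothelium genes 0 higher and 4 lower.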

Additional observations from a re-analysis of the deposited data

How the results depend on the processing

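Alternatives were other scalings (cyclic loess, quantile normalization, median centring), filters of 50% or none, averaged probe sets per gene, robust eBayes or one with a trend, the tissue fit without a diet term, and leaving out each array. They were applied to the other lists after the data were seen. The imprinted genes called higher in sperm than epididymis (1 of 7) became 0 after median centring, with no filter and without the diet term, and 0 to 1 with 1 array left out. Those called lower (2) became 1 after quantile normalization and without the diet term, and 1 to 4 with 1 array left out. In low protein sperm 0 to 1 were called lower with 1 array left out. No imprinted gene was called under the other diet comparisons or the difference between tissues in any alternative. Signs that turned belonged to differences never past the threshold. Between tissues, Cdkn1c was -0.0020 after median centring, -0.00098 without the diet term and -0.0878 to 0.20 with 1 array left out, and Peg3 -0.30 to 0.12 with 1 array left out. In low protein sperm, Igf2 was 0.0210 after quantile normalization and, with 1 array left out, Igf2 ran from -0.34 to 0.31, Peg3 from -0.16 to 0.0201, Cdkn1c from -0.13 to 0.49, Dlk1 from -0.0791 to 0.17 and Grb10 from -0.0296 to 0.29. For caloric restriction Igf2 was 0.0352 after cyclic loess and -0.18 to 0.0633 with 1 array left out. With both diets Igf2 was 0.0046 and Dlk1 0.0342 after quantile normalization and Dlk1 0.0561 after cyclic loess; with 1 array left out Igf2 ran from -0.20 to 0.12, Cdkn1c from -0.17 to 0.18, Dlk1 from -0.13 to 0.0470 and Grb10 from -0.20 to 0.13. The count over all genes between tissues was 2748 without the low protein epididymis array (6594 with it), and in low protein sperm 5155 without replicate 1 and 237 after cyclic loess (0 in the main analysis). For caloric restriction it was 298 to 2021 with 1 array left out (756), and for both diets 0 to 1428 (373), 589 after cyclic loess, 197 with a 50% filter and 168 with a trend. Between low protein and caloric restriction it was 0 to 1956 with 1 array left out, 135 after cyclic loess and 23 with a trend (0), and for the difference between tissues 0 to 1639 with 1 array left out (0). A left-out array can leave 1 array in a group, assumed to vary like the others. The cause of these changes was not tested. No paired analysis was possible because the labels give no replicate numbers that groups share. Signal over background was not measured, which limits what can be said of the imprinted genes, above all Mest and Peg10. Igf2, Peg3 and Grb10 were also left out by the 50% filter, which kept 4 imprinted genes.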
